A study of Homo sapiens with 8 samples.

Results

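The genes described here are 7 core genes of the Hedgehog signalling pathway (GLI1, GLI2, GLI3, PTCH1, SMO, SUFU and HHIP), chosen by name and read out of the 69215 genes listed in each RNA library. All 7 were found by their Ensembl identifiers, and 5 of them had enough reads to be tested. GLI3 and HHIP did not pass the expression filter and are given as counts only.

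The libraries came from G401, a permanent human cell line of renal rhabdoid tumor origin without SMARCB1, a core subunit of the SWI/SNF chromatin remodelling complexes. A Tet-On system in these cells let doxycycline (Dox) switch on SMARCB1 in one derived line and green fluorescent protein (GFP) in the control line. Each line was kept for 12 h with 0.1 µg/ml Dox or with dimethylsulfoxide (DMSO), the solvent, which gave the groups SMARCB1 DMSO and SMARCB1 Dox, and for the control GFP DMSO and GFP Dox, with 2 libraries each. All groups lack the endogenous SMARCB1 protein and carry the inducible system, the sources used here do not say whether each line is a single clone, and plates were pooled for each replicate, so the p-values measure the spread between these libraries, which may be partly technical.

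In the Hedgehog pathway a secreted ligand (SHH, IHH or DHH) binds the receptor PTCH1, which in the absence of ligand holds back the membrane protein SMO. Active SMO at the primary cilium releases the zinc finger transcription factors GLI2 and GLI3 from SUFU, which otherwise retains them and favours their processing into repressors. GLI1 and PTCH1 are themselves classical targets of GLI factors, so their RNA is widely used as a readout of the pathway, and GLI1 has been described as repressed by SMARCB1 in rhabdoid tumor cells.

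The upstream sequences of the core genes whose RNA rose after SMARCB1 induction are shown because PTCH1 is a textbook GLI target. Promoter windows of 300 bases (250 before and 50 after an annotated start) came from RefSeq on GRCh38.p14, and 10 windows for 5 of the 7 genes were in the table used here. Windows of GLI1 and GLI3 were not analysed here. The 9 letters GACCACCCA of the GLI consensus were searched on both strands. They occurred in 83 of the 35116 windows of all genes (0.236%), and in 1 of the 10 windows of the core genes. The window with the match belongs to PTCH1, which has 5 of the 10 windows, some of them overlapping. The windows are thus not independent, PTCH1 was already known as a GLI target, and enrichment was not tested. The match, printed in capitals and read as TGGGTGGTC on the strand of the gene, began at position −172 relative to an alternative PTCH1 start, in a stretch that lies inside the PTCH1 locus and holds no annotated exon base. The sequences below run 5′ to 3′ on the strand of each gene, at chr9:95509370-95509498 (minus strand) for PTCH1, chr10:102503872-102503971 (plus strand) for SUFU and chr2:120792181-120792280 (plus strand) for GLI2. The SUFU and GLI2 stretches lie directly before a RefSeq start, hold no annotated exon base, and contain no match to these letters. For GLI2 this is an alternative start inside the GLI2 locus. The GLI2 window at the 5′ end of the locus (chr2:120735618-120735917) is not printed and held no match either.
PTCH1: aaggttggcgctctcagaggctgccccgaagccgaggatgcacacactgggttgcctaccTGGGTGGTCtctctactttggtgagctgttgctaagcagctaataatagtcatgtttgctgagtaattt
SUFU: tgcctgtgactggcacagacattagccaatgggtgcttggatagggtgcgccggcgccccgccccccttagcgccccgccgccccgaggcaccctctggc
GLI2: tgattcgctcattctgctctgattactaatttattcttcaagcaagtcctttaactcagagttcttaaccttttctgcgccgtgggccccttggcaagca
A match is a run of letters and not evidence of binding, and no binding data were used here.

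The libraries held 29632090 to 37597477 reads assigned to genes. SMARCB1 had 10 and 21 counts in the SMARCB1 DMSO libraries, 30474 and 29383 in SMARCB1 Dox and 0 in every GFP line library, which matched the labels. The rhabdoid line markers VIM and KRT8 were at 678 to 1309 and 329 to 573 CPM (reads of a gene as a share of its library, scaled with TMM factors), and the summed markers of blood, endothelium, epithelium and skeletal muscle stayed below 1 CPM in every library, 0.915 CPM being the highest sum. The share of reads from the mitochondrial genome ran from 18.9% to 27.9% and was highest in SMARCB1 DMSO 1. In RNA from a whole culture, fewer expressing cells and less RNA per cell cannot be told apart.

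Per kilobase of exon, SMO was the most abundant of the 7 genes in every group, with group means of 9.68 to 11.9 CPM per kb. PTCH1, with 2.42 to 3.68, and SUFU, with 2.30 to 3.30 CPM per kb, came after it. In GFP DMSO these neighbours did not differ beyond their spread, at 2.59 ± 0.0016 for PTCH1 and 2.51 ± 0.309 for SUFU (SD, n = 2). In GFP Dox SUFU had the higher mean, at 2.84 ± 0.364 against 2.42 ± 0.0488, and in both SMARCB1 line groups PTCH1 had. Exon length here joins all annotated exons of a gene, 17281 bases for PTCH1 and 6880 for SUFU, and can exceed a single transcript. The place of PTCH1 in this order depends on that length. Mean CPM of PTCH1 was 44.7 against 17.2 for SUFU in GFP DMSO, and 63.7 against 56.4 for SMO in SMARCB1 Dox. GLI1 came next, at 0.366 ± 0.0929 CPM per kb in SMARCB1 DMSO and 1.67 ± 0.124 in GFP DMSO (SD, n = 2). GLI2 reached 0.125 ± 0.0140 CPM per kb in SMARCB1 Dox, its highest group (SD, n = 2), and the group means of HHIP and GLI3 were at most 0.0131 and 0.0023 CPM per kb.

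**Figure D1:**
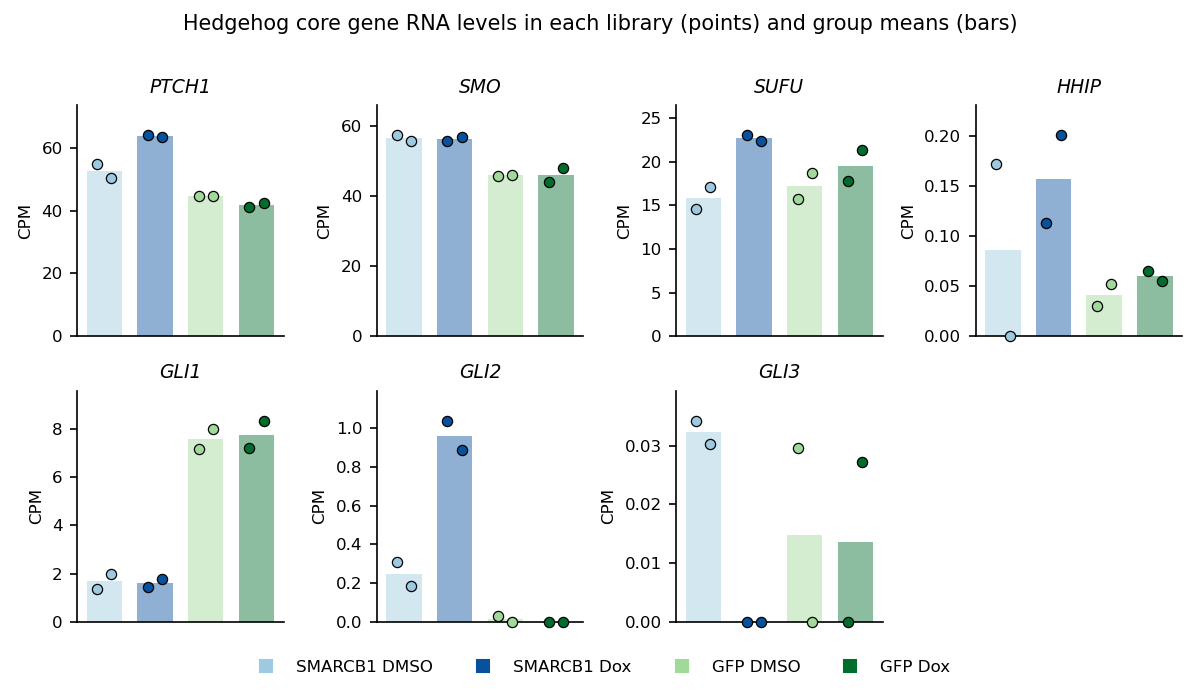
Level of each core gene in CPM (vertical axes from 0, a scale for each gene) in the 4 groups, with points for the 2 libraries of a group and bars for their mean. PTCH1, SUFU and GLI2 are higher in both SMARCB1 Dox libraries than in both SMARCB1 DMSO libraries, while GLI1 is between 7.19 and 8.36 CPM in the GFP line and between 1.37 and 1.97 CPM in the SMARCB1 line.

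The first comparison asked what 12 h of SMARCB1 expression did to these genes in the SMARCB1 line. PTCH1, SUFU and GLI2 rose, SMO stayed within its spread, and GLI1, the usual readout of pathway activity, was not detectably altered. Of the 5 core genes tested 3 were called at an adjusted p under 0.05 (edgeR quasi-likelihood test, Benjamini-Hochberg over all 15931 genes tested). All 3 were higher, whereas 14% of all tested genes were called, 8.33% higher and 5.69% lower. GLI2 passed the expression filter only through the SMARCB1 Dox libraries (37 and 31 reads), the group where it was high. Its place in this count is therefore not independent of its rise.

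PTCH1 (chromosome 9, 95442980 to 95517057 on GRCh38, minus strand), the ligand receptor and inhibitor of SMO, had 54.8 and 50.4 CPM in the SMARCB1 DMSO libraries and 63.9 and 63.4 CPM in the SMARCB1 Dox libraries. Both Dox libraries lay above both DMSO libraries. The rise was 0.28 on the log2 scale (SE 0.08, a 1.21-fold change, edgeR adjusted p = 0.0268), and the adjusted p rose to between 0.0725 and 0.181 when SMARCB1 Dox 1, SMARCB1 Dox 2 or SMARCB1 DMSO 2 was left out. It was 0.0700 when only the compared libraries were fitted.

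SUFU (chromosome 10, 102503972 to 102633535, plus strand), the cytoplasmic inhibitor of GLI factors, had 14.6 and 17.1 CPM in SMARCB1 DMSO and 23.0 and 22.4 CPM in SMARCB1 Dox. The groups did not overlap. SUFU rose by 0.52 on the log2 scale (SE 0.12, 1.43-fold, edgeR adjusted p = 0.00561). This call was lost only when SMARCB1 DMSO 1, the library with the highest mitochondrial share, was left out (0.41 on the log2 scale, edgeR adjusted p = 0.0775), while it stood when mitochondrial genes were left out of the scaling.

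GLI2 (chromosome 2, 120735623 to 120992653, plus strand), the main activating GLI factor, gave 9 and 6 reads in SMARCB1 DMSO and 37 and 31 reads in SMARCB1 Dox. That corresponds to 0.309 and 0.182 CPM before and 1.04 and 0.887 CPM after induction, with no overlap between the groups. The rise was 1.97 on the log2 scale (SE 0.55, edgeR adjusted p = 0.0193), and the ratio of the pooled counts was 3.99 with a 95% exact interval of 2.26 to 7.52, which covers counting error only. With so few reads, leaving out any one of the 4 libraries of the SMARCB1 line brought the adjusted p to between 0.0625 and 0.165, and the direction held each time.

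SMO (chromosome 7, 129188633 to 129213545, plus strand), the transducer at the membrane, had 57.4 and 55.9 CPM in SMARCB1 DMSO and 55.8 and 56.9 CPM in SMARCB1 Dox. The libraries of both groups interleaved. The fitted difference was −0.01 on the log2 scale with a 95% interval of −0.18 to 0.16 (edgeR adjusted p = 0.973).

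GLI1 (chromosome 12, 57459785 to 57472268, plus strand), the GLI factor that amplifies the signal, had 1.37 and 1.97 CPM in SMARCB1 DMSO and 1.46 and 1.77 CPM in SMARCB1 Dox, from 40 to 65 reads per library. Both Dox values fell between the DMSO values. The fitted difference was −0.06 with a 95% interval of −0.55 to 0.44 on the log2 scale (edgeR adjusted p = 0.920). Changes of GLI1 RNA within that interval were not detectable at this depth. The fitted signs of GLI1 and SMO turned when libraries were scaled to their total counts, to 0.030 and 0.086, and neither was called.

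The remaining core genes were near the limit of detection. HHIP (chromosome 4, 144646156 to 144745271, plus strand), a membrane protein that binds and sequesters Hedgehog ligands, gave 5 and 0 reads in SMARCB1 DMSO and 4 and 7 reads in SMARCB1 Dox. Its GFP line libraries held 1 and 2 reads with DMSO and 2 and 2 with Dox. GLI3 (chromosome 7, 41960949 to 42264100, minus strand), the main GLI repressor, gave 0 or 1 read in every library, below the limit of 3 counts that corresponded to 0.0781 to 0.103 CPM per library. A difference between groups was not detectable at this depth for either gene.

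**Figure D2:**
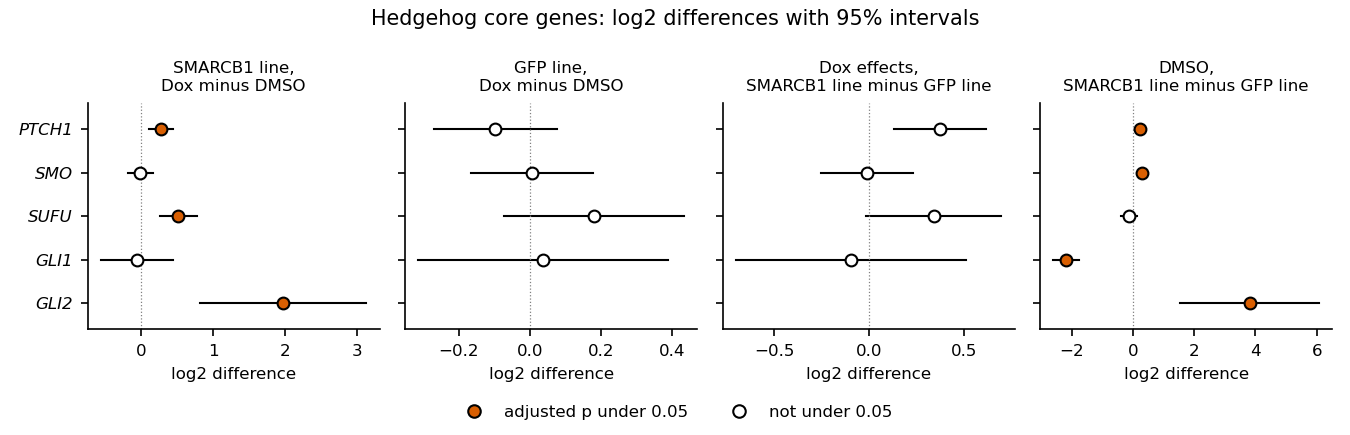
Fitted log2 differences (points) with 95% intervals (lines) for the tested core genes in the 4 comparisons, each with its own horizontal scale, filled where the edgeR adjusted p was under 0.05. GLI2 is left blank in the GFP line and in the difference between Dox effects because its GFP line groups held 1 and 0 reads, and GLI1 has a change of −2.17 between the lines but −0.06 after SMARCB1 induction.

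The GFP line gave the background of Dox treatment with GFP in place of SMARCB1. No core gene was called among the 5 tested, and 0% of all tested genes were called by edgeR, with 266 genes at an unadjusted p under 0.05 and 0 genes called by DESeq2. These 266 are fewer than chance alone would give among 15931 genes, so the edgeR test was cautious here. Its fit covered all groups together. Chi-square per gene between replicates was 7.40 in GFP DMSO and 8.80 in GFP Dox. It was 19.98 in SMARCB1 DMSO and 11.9 in SMARCB1 Dox. Whether this made the test cautious was not tested. The lack of calls does not show that Dox had no effect in the GFP line. PTCH1 had 44.7 and 44.7 CPM in GFP DMSO and 41.2 and 42.4 CPM in GFP Dox. Here both Dox libraries were slightly below both DMSO libraries, with a fitted difference of −0.10 and a 95% interval of −0.27 to 0.08 on the log2 scale.

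SUFU had 15.7 and 18.7 CPM in GFP DMSO and 17.8 and 21.3 CPM in GFP Dox, which overlapped, and its fitted difference was 0.18 (95% interval −0.07 to 0.43, log2). SMO and GLI1 differed by 0.01 and 0.04 on the log2 scale in the GFP line, with intervals of −0.17 to 0.18 and −0.31 to 0.39. GLI2 had 1 and 0 reads in GFP DMSO and none in GFP Dox, so no fold was computed. The 0 of GFP Dox allows up to 0.0445 CPM over both libraries together.

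When the Dox effect of the SMARCB1 line was set against that of the GFP line, no core gene passed the threshold, whereas 4.71% of all tested genes did, 3.07% higher and 1.64% lower. PTCH1 came nearest, with a difference between the Dox effects of 0.37 on the log2 scale (SE 0.12, 95% interval 0.13 to 0.62, unadjusted p = 0.00435, edgeR adjusted p = 0.0765). It passed when libraries were scaled to their totals (0.45, edgeR adjusted p = 0.0341), and also in a fit with a block for the replicate number. The replicate numbers were not shown to pair the samples. SUFU differed by 0.34 (95% interval −0.02 to 0.70, edgeR adjusted p = 0.346), GLI1 by −0.10 (−0.70 to 0.51) and SMO by −0.01 (−0.26 to 0.23). DESeq2 also called no core gene here, and PTCH1 was the only one with an unadjusted edgeR p under 0.05. The rises of PTCH1, SUFU and GLI2 were thus called within the SMARCB1 line. For PTCH1 and SUFU the difference from the Dox effect in the GFP line did not pass the threshold in the main fit. For GLI2 that difference could not be sized, since the GFP line held 1 read in all.

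The fourth comparison set the lines against each other without Dox. It shares the SMARCB1 DMSO libraries with the first comparison. Among the core genes it gave lower GLI1 and higher GLI2, SMO and PTCH1 RNA in SMARCB1 DMSO than in GFP DMSO. Of the 5 tested core genes 4 were called, against 32% of all tested genes, of which 16.3% were higher and 15.7% lower. GLI2, among those called, had passed the expression filter only through the SMARCB1 Dox libraries. These are not part of this comparison but belong to the line where GLI2 was high. Its place in this count is therefore not independent of its line difference. Line, integrated construct and any drift between the cultures cannot be told apart here. SMARCB1 itself gave 10 and 21 reads in SMARCB1 DMSO, and whether these came from leaky expression was not tested.

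GLI1 had 7.19 and 7.99 CPM in GFP DMSO against 1.37 and 1.97 CPM in SMARCB1 DMSO. All 4 GFP line libraries, with or without Dox, lay above all 4 SMARCB1 line libraries. The difference was −2.17 on the log2 scale (SE 0.20, edgeR adjusted p = 1.62e-08), and it stayed between −2.47 and −1.95 when single libraries were left out.

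GLI2 showed the opposite order, with 15 reads over the SMARCB1 DMSO libraries and 1 read over the GFP DMSO libraries. The ratio of pooled counts was 17.4 with a 95% exact interval of 2.68 to 733 (counting error only, edgeR adjusted p = 0.0096). The call was lost without SMARCB1 DMSO 1 or GFP DMSO 2, where the edgeR adjusted p was 0.0736 and 0.122. The GLI1 and GLI2 RNAs thus ran in opposite directions between the lines.

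SMO had 45.8 and 46.1 CPM in GFP DMSO against 57.4 and 55.9 CPM in SMARCB1 DMSO, a difference of 0.30 (SE 0.08, edgeR adjusted p = 0.00712). The groups did not overlap. PTCH1 differed by 0.23 (SE 0.08, edgeR adjusted p = 0.0343), also without overlap. Scaling to library totals, which moved the median of all genes from 0.01 to −0.10 on the log2 scale in this comparison, left SMO at 0.18 and PTCH1 at 0.12, neither of them called. The SMO call was also lost without GFP DMSO 1 or GFP DMSO 2 (edgeR adjusted p = 0.0579 and 0.0610). The PTCH1 call was also lost with DESeq2, without the expression filter, with only the compared libraries, and without SMARCB1 DMSO 1 or any one of the 4 GFP line libraries (edgeR adjusted p = 0.0562 to 0.227 with a library left out). SUFU overlapped between the lines and differed by −0.12 (95% interval −0.38 to 0.13, log2, edgeR adjusted p = 0.492).

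The genes whose pattern over the 8 libraries was most like that of GLI1 were GUCY1A2 (a subunit of soluble guanylate cyclase), MAP1A (a microtubule-associated protein) and ANK2 (an ankyrin). Their Pearson r of log2 CPM with GLI1 was 0.998, 0.998 and 0.997 over the 8 libraries, which share the split into 2 lines. In the SMARCB1 line GUCY1A2 lay between 6.82 and 11.7 CPM, against 57.0 and 73.5 CPM as its lowest and highest GFP line values. As many as 724 of the 12044 genes compared had an r above 0.95, so the likeness mainly describes the line difference and singles out no partner of GLI1.

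The wider pathway was read from 111 further genes in 5 lists by role, of which 92 were tested. In the SMARCB1 line 16 of them (17.4%) were called after Dox, 11 higher and 5 lower, against 14% of all tested genes called (8.33% higher and 5.69% lower). In the GFP line none was called. Between the Dox effects of the 2 lines 6 were called (6.52%, beside 4.71% of all tested genes), with SCUBE3, CDON, ARRB1, CDK6 and PDGFRA higher and BCL2 lower. Without Dox, 37 were called between the lines (40.2%, beside 32% of all tested genes), 20 higher and 17 lower. Among these, GPC5, FOXF2 and TIAM1 passed the expression filter only through the line where they were high. Their places in this count are therefore not independent of that difference. The median Dox effect of the 92 in the SMARCB1 line was 0.04 on the log2 scale, beside −0.0038 for all tested genes.

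**Figure D3:**
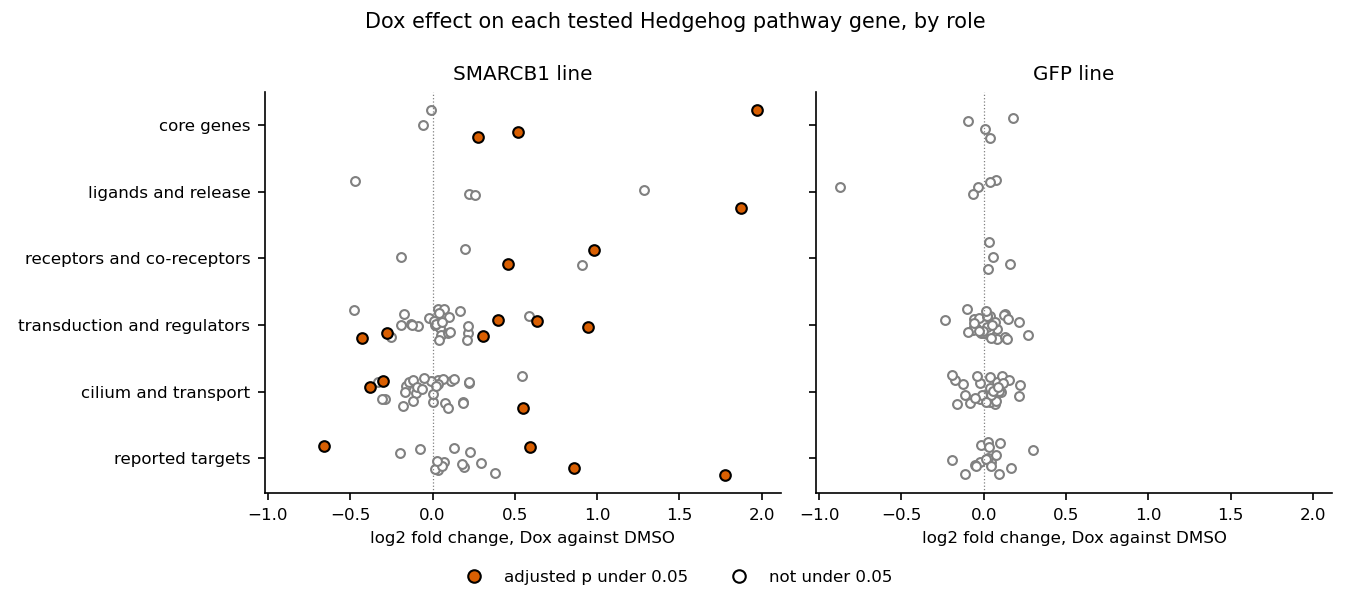
Log2 fold change of Dox against DMSO for each tested pathway gene, grouped by role, in the SMARCB1 line (left) and the GFP line (right), filled where the edgeR adjusted p was under 0.05. Genes with at most 3 reads in either group are left out of a panel, and called genes appear in the SMARCB1 line only, between −0.66 for BCL2 and 1.97 for GLI2.

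Ligand RNA was close to absent. SHH had 0 to 0.281 CPM over the 8 libraries, IHH 0 to 0.162 and DHH 0 to 0.0343, and none of them passed the expression filter. Of the 5 tested genes that process or release ligand, 1 rose after SMARCB1 induction (20% called, beside 14% of all tested genes). SCUBE3, a secreted protein of the family that helps release lipid-modified ligand, had 1.47 and 1.64 CPM in SMARCB1 DMSO and 5.56 and 5.86 CPM in SMARCB1 Dox. The GFP line libraries held 0.533 to 0.714 CPM. SCUBE3 rose by 1.87 on the log2 scale (SE 0.23, edgeR adjusted p = 7.95e-06). Between the untreated lines 4 of these 5 were called (80%, beside 32% of all tested genes). SCUBE3 (1.35), DISP2 (1.07) and the ligand acyltransferase HHAT (0.62) were higher in the SMARCB1 line and the ligand exporter DISP1 was lower (−0.65, log2).

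Among the receptors and co-receptors 2 of 5 tested genes rose after induction (40% called, beside 14% of all tested genes). CDON, a co-receptor that binds ligand together with PTCH1, had 9.64 and 6.79 CPM in SMARCB1 DMSO and 14.7 and 17.5 CPM in SMARCB1 Dox, a rise of 0.98 (SE 0.15, log2, edgeR adjusted p = 8.14e-05). In the GFP line it ran from 11.6 to 13.4 CPM, so SMARCB1 Dox was above and SMARCB1 DMSO below every GFP line library. The glypican GPC4 rose by 0.46 (edgeR adjusted p = 0.0270), a call that DESeq2 did not make (adjusted p = 0.244) and that was lost without SMARCB1 Dox 1 (0.30) or SMARCB1 DMSO 2 (0.17). The co-receptors BOC and GAS1 were at 0 to 0.0286 and 0 to 0.152 CPM. CDON (−0.52) and GPC4 (−0.37) were lower in the untreated SMARCB1 line, and both calls were lost without SMARCB1 DMSO 2, where the values were −0.28 for CDON and −0.08 for GPC4. GPC5 was higher, with 22 reads against 1. It had passed the expression filter only through SMARCB1 line libraries, where it was high, so this call is not independent of the difference.

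Of the 32 transducers and regulators, all of them tested, 4 rose and 2 fell after SMARCB1 induction (18.75% called, beside 14% of all tested genes). ARRB1, a beta-arrestin that takes part in SMO traffic to the cilium, had 28.9 and 28.1 CPM in SMARCB1 DMSO and 56.5 and 53.2 CPM in SMARCB1 Dox. All GFP line libraries lay between 31.1 and 34.2 CPM. Its rise was 0.94 (SE 0.09, log2, edgeR adjusted p = 3.03e-07). The kinases MAP3K10 (0.64) and PRKACB (0.40, a catalytic subunit of protein kinase A, which phosphorylates GLI factors) also rose, as did GRK2 (0.31), a kinase of SMO. IQCE (−0.43), a ciliary scaffold of the pathway, and SPOP (−0.28), a ubiquitin ligase adaptor that targets GLI2 and GLI3, fell. The SPOP and MAP3K10 calls were lost when only the compared libraries were fitted, with edgeR adjusted p of 0.100 and 0.0685. PRKACB was not called without SMARCB1 Dox 2 (0.23) or SMARCB1 DMSO 2 (0.35), and IQCE without SMARCB1 DMSO 2 (−0.29).

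Of these 32, 8 were called between the untreated lines (25%, beside 32% of all tested genes), 6 of them higher in the SMARCB1 line. These included GPR161 (0.94), a ciliary receptor that restrains the pathway, and PRKACB (0.56, log2). SPOP (−0.33) and IQCE (−0.26) were lower. The IQCE call was lost without SMARCB1 DMSO 1, where its value was −0.14 and the edgeR adjusted p 0.336.

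Of 32 tested genes of ciliary transport, 3 were called after SMARCB1 induction, 1 higher and 2 lower, a share of 9.38% beside the 14% of all genes. IFT46 rose by 0.55, and IFT88 and WDR35 fell by 0.38 and 0.30 on the log2 scale, with calls for IFT88 and WDR35 that were lost under scaling to library totals (edgeR adjusted p = 0.110 and 0.207). IFT46 had 7.75 and 8.94 CPM in SMARCB1 DMSO and 12.2 and 12.2 CPM in SMARCB1 Dox, and its call was lost without SMARCB1 DMSO 1 (0.45) or SMARCB1 Dox 1 (0.55). Between the untreated lines 10 were called (31.2%, close to the 32% of all tested genes), among them IFT27 (0.78), IFT46 (0.70) and IFT20 (0.59) higher and IFT140 (−0.66), IFT81 (−0.32) and TRAF3IP1 (−0.31, log2) lower in the SMARCB1 line.

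Of the 28 genes reported as GLI targets in one tissue or another 18 were tested. After induction 3 rose and 1 fell (22.2% called, beside 14% of all tested genes). PDGFRA, a receptor tyrosine kinase, had 0.583 and 0.243 CPM in SMARCB1 DMSO and 1.32 and 1.46 CPM in SMARCB1 Dox. It stood at 64.9 to 69.4 CPM in the GFP line, so its rise of 1.78 (SE 0.29, log2, edgeR adjusted p = 0.000229) left it far below that level. CDK6, a G1 cyclin-dependent kinase, had 199 and 154 CPM in SMARCB1 DMSO and 362 and 278 CPM in SMARCB1 Dox, a rise of 0.86 (SE 0.11, edgeR adjusted p = 1.82e-05) that also left it below the 473 to 513 CPM of the GFP line. The forkhead factor FOXC2 rose by 0.59, and its edgeR adjusted p was 0.0515 without SMARCB1 Dox 1.

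BCL2, an inhibitor of apoptosis, fell. It had 72.8 and 68.7 CPM in SMARCB1 DMSO and 43.0 and 46.7 CPM in SMARCB1 Dox, against 73.0 to 77.4 CPM in the GFP line. The fitted change was −0.66 on the log2 scale (SE 0.08, edgeR adjusted p = 9.48e-06). The genes of this list that changed therefore moved in both directions.

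**Figure D4:**
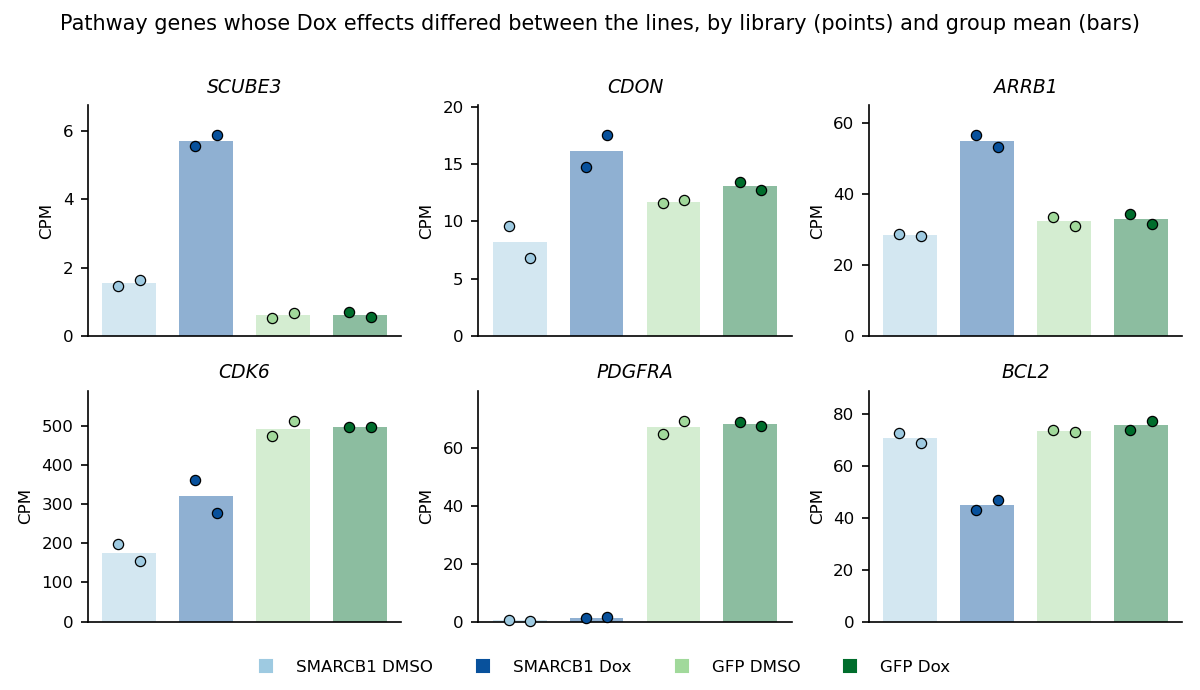
CPM (vertical axes from 0, a scale for each gene) of the 6 further pathway genes whose Dox effect differed between the lines, with points for the 2 libraries of a group and bars for their mean. CDK6 and PDGFRA rise after induction from a level far below that of the GFP line, while BCL2 falls from about the GFP line level of 73.0 to 77.4 CPM to 43.0 and 46.7 CPM.

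Between the untreated lines 11 of the 18 tested targets were called (61.1%, beside 32% of all tested genes), 6 higher and 5 lower in the SMARCB1 line. FOXF2 (24 reads in SMARCB1 DMSO, 0 in GFP DMSO) and TIAM1 passed the expression filter only through the line where they were high. Their places among the genes tested and called are therefore not independent of that difference. CCND2, a D-type cyclin, had 28.9 and 32.7 CPM in SMARCB1 DMSO and 0.888 and 0.651 CPM in GFP DMSO (log2 difference 5.33, edgeR adjusted p = 3.8e-15). The forkhead factors FOXL1 (3.98) and FOXC2 (2.99) were higher too. PDGFRA (−7.37) and CDK6 (−1.48) were lower. TIAM1, an exchange factor for the GTPase RAC, gave 1 read over the SMARCB1 DMSO libraries and 436 over the GFP DMSO libraries, a ratio of 375 in favour of the GFP line with a 95% exact interval of 67.0 to 14859 (counting error only). Targets with higher RNA and targets with lower RNA than in the GFP line thus stood side by side in the line that had less GLI1 and more GLI2 RNA.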

How the data were processed

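RNA libraries of the 4 groups were analysed, and the study's ribosome profiling libraries were not used here. The deposited values are unnormalised gene counts that the authors obtained by STAR alignment and HTSeq (versions not given in the sources used here) on hg38 with GENCODE v42, counting over exons. The strand option is not given, and the labels and the methods name different library kits. Counts of PTCH1, GLI1, SMO and HHIP could thus be affected where they overlap genes on the opposite strand. Those overlapping genes had at most 38 counts. That number does not bound the effect, since reads that fit both genes may have been left out. The 5 entries naming no gene (27.0% to 29.3% of a library) were left out.

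Symbols, positions and exon lengths came from GENCODE v44 (62625 identifiers matched). Counts were fitted with edgeR 4.0.16 (R 4.3.3, filterByExpr, TMM, 1 mean per group over all 8 libraries, quasi-likelihood test, adjusted p threshold 0.05), and tested on simulated data first. Alternatives were DESeq2 1.42.0, other scalings, filters, a replicate block, the compared libraries alone and each library left out. Counts of replicates differed by more than sampling noise. The correlations of same-numbered replicates' deviations were 0.03 to 0.15, and the labels do not say what a number marks, so the numbers were not taken as pairs. Named genes were all core genes, all ligands, up to 3 called genes per list and direction at a mean of at least 1 CPM, and the 3 genes most correlated with GLI1. GRK2, GPC5, BOC, GAS1 and the genes differing between Dox effects were added after their values were seen. Values of some genes that this rule names are not reported here. The core genes and lists were chosen with earlier results of these data known.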

Additional observations from a re-analysis of the deposited data

Results flagged for a closer look

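The Dox effect in the SMARCB1 line differed from that in the GFP line, by the test of the difference itself (edgeR quasi-likelihood test, 2 libraries per group), for 6 pathway genes outside the core. The difference on the log2 scale was 1.83 for SCUBE3 (adjusted p = 0.0105), 1.75 for PDGFRA (adjusted p = 0.00148), 0.92 for ARRB1 (adjusted p = 0.000121), 0.85 for CDK6 (adjusted p = 0.00267), 0.82 for CDON (adjusted p = 0.0216) and −0.70 for BCL2 (adjusted p = 0.000729). For SCUBE3 the edgeR adjusted p rose to 0.0624 without GFP Dox 2 and to 0.0949 without GFP DMSO 2. For CDON it lay between 0.0605 and 0.104 without SMARCB1 Dox 2, SMARCB1 DMSO 2, GFP DMSO 2, GFP Dox 1 or GFP Dox 2. The other 4 calls stood in every alternative run.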

How the results depend on the processing

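Of 259 recomputed values that kept all libraries, 238 kept their direction and their side of the threshold (counts: stayed within 1.5 times), and 192 of 240 did so with a library left out. The cause of the others was not tested. The 2 libraries per group, and at most 68 reads for GLI2 in a group, limit the precision.

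With libraries scaled to their totals, the Dox effect in the SMARCB1 line was 0.030 for GLI1 and 0.086 for SMO, and the difference between Dox effects was 0.066 for SMO and 0.45 for PTCH1, which made 1 core gene called there. Between the untreated lines the same scaling left 2 core genes called, with SMO at 0.18 and PTCH1 at 0.12. Fitting only the compared libraries gave PTCH1 0.28 after SMARCB1 induction (edgeR adjusted p = 0.0700), and 2 core genes called between the lines, with PTCH1 at 0.23. PTCH1 between the lines was also not called without the expression filter (0.23) or with DESeq2 (0.23). Without that filter 1 gene of all was called in the GFP line.

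In a fit with a block for the replicate number, the difference between Dox effects was called for 1282 of all genes against 750 without it, for 10 further pathway genes and for 1 core gene, PTCH1 (0.37, edgeR adjusted p = 0.0216). Block and GC correction together gave 1217 genes and 1 core gene, PTCH1 at 0.38. The numbers were not shown to pair the samples.

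With single libraries left out, the genes called of all tested numbered 1284 to 2087 after SMARCB1 induction and 390 to 805 for the difference between Dox effects. Core genes called numbered 1 to 3 after induction and 1 to 4 between the lines, and further pathway genes 9 to 18 and 22 to 38. On the log2 scale, values after induction ranged from −0.29 to 0.24 for GLI1, 1.63 to 2.38 for GLI2, 0.22 to 0.33 for PTCH1, −0.027 to 0.011 for SMO and 0.41 to 0.64 for SUFU. In the GFP line they ranged from −0.078 to 0.13 for GLI1 and −0.060 to 0.061 for SMO. Differences between Dox effects ranged from −0.32 to 0.20 for GLI1 and −0.068 to 0.053 for SMO. Between the untreated lines the ranges were 2.88 to 6.07 for GLI2, 0.17 to 0.29 for PTCH1, 0.28 to 0.32 for SMO and −0.24 to 0.0037 for SUFU. The lowest counts came without SMARCB1 Dox 1 after induction (1284, and 9 further pathway genes), without GFP Dox 1 for the difference (390) and without GFP DMSO 2 between the lines (1 core gene, 22 further pathway genes).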
